A study of Mus musculus with 8 samples.

Results

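The genes described here encode 10 regulators that attach, read or remove ubiquitin chains in the signaling pathway to NF-kB, the transcription factor family behind many inflammatory genes. They were chosen by name, as the rows listed as *Tnfaip3*, *Tnip1*, *Cyld*, *Birc2*, *Birc3*, *Traf2*, *Traf6*, *Rnf31*, *Rbck1* and *Sharpin* among the 41709 genes with deposited values, and all 10 were found. The mRNAs were measured by RNA-seq in 8 tibialis anterior (TA) muscles of male C57BL/6J mice that were 3 months old. In each of 4 mice, 1 TA muscle was electroporated with a pool of *Uba1* siRNAs and the other with a pool of non-targeting (NT) control siRNAs, and both were collected on day 7. No allele or other agent differed between the groups, and the muscles of both groups had been pretreated with hyaluronidase. The titles mark all NT muscles with R and all *Uba1* muscles with L, so the leg and the siRNA cannot be told apart. The treatment tag names UBA1 for replicate 1 only and other numbered names for the remaining *Uba1* muscles, whereas the titles and descriptions name UBA1 for all 4, and the descriptions were used. Whole muscle also holds vessels, connective tissue and leukocytes, and electroporation need not reach each fiber. In such a bulk sample, fewer cells of a type and less RNA per cell cannot be told apart.

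UBA1 is the main enzyme that activates ubiquitin for all later steps of ubiquitination. When TNF, IL-1 or Toll-like receptors are engaged, TRAF and cIAP ligases build ubiquitin chains on receptor complexes, and the linear ubiquitin assembly complex (LUBAC) adds linear chains. These chains recruit the kinases that release NF-kB from its inhibitors. A20 and CYLD then take the chains apart or cap them, and the gene for A20 is itself a classical target of NF-kB, so that it closes a negative feedback loop.

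Levels are given as TPM, transcripts per 1000000, which are scaled to gene length and to the same total in each muscle, so that genes can be compared with each other. The total number of reads is therefore unknown. Differences are given as log2FC, the difference in mean log2(TPM + 1) between *Uba1* and NT siRNAs, a scale on which differences of scarce mRNAs look smaller than they are. They were tested with limma over 11530 genes that reached 1 TPM in 4 or more muscles, a filter that all 10 regulators passed. The targeted gene was lower in each muscle with its siRNAs: *Uba1* mRNA was between 59.0 and 63.6 TPM with NT siRNAs and at 18.1, 6.77, 15.8 and 23.1 TPM in *Uba1* replicates 1 to 4. Its log2FC was -1.98 ± 0.290 (standard error; limma adjusted p = 0.0527, and 0.0278 with the replicate number as a block). The muscles were rich in fiber mRNAs, as the summed TPM of 9 fiber markers such as *Acta1*, *Ckm* and *Myh4* lay between 80721 and 105407.

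The κB consensus, the DNA motif that NF-kB dimers bind, was searched on both strands in the promoters that RefSeq gives for these genes (250 bases before to 50 after each start site). Promoters were found for 9 of the 10 genes. At least 1 match was present in 3 of these 9 genes (33.3%), *Tnfaip3*, *Tnip1* and *Cyld*, against 562 (6.21%) of the 9046 tested genes that have a promoter there and 4.51% of all 32851 promoters. Each promoter was located in GRCm39 by exact match. With *Uba1* siRNAs these 3 genes differed in direction (log2FC -1.23, -0.068 and 0.41), and a relation of the motif to these values was not tested. The stretches that hold the motif are printed below 5′ to 3′ on the strand of the gene, with the matching bases in capitals.
Tnfaip3, 125 bases before the start: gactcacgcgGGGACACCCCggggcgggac
Tnfaip3, 12 bases before the start: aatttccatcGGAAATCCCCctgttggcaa
Tnip1, 58 bases before the start: tccatcatgGGGGAATTCCCCtcctgcctc
Cyld, 155 bases before the start: ttgaccgagcGGAAAGTCCCttcagccagc

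The *Tnfaip3* stretches lie at chr10:18891264-18891293 and chr10:18891151-18891180 (minus strand), the *Tnip1* stretch at chr11:54853804-54853833 (minus strand) and the *Cyld* stretch at chr8:89423491-89423520 (plus strand). In the *Tnip1* stretch, 3 overlapping matches cover 12 bases. In the GENCODE annotation the upstream *Tnfaip3* match lies outside the exons of the gene, while the others fall within an exon of a transcript that starts farther upstream. A match is a sequence only, and binding was not measured.

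With NT siRNAs, the 10 mRNAs were of middling abundance, from 4.50 ± 0.504 TPM for *Rnf31* to 18.8 ± 0.833 TPM for *Tnip1* (SD, n = 4 muscles). By mean level over all muscles, they stood between the percentiles 36.4 (*Birc3*) and 73.7 (*Tnip1*) of the genes tested. *Tnip1* stood above all others, with no overlap with the next gene, *Rbck1* (13.3 ± 1.87 TPM). *Rbck1*, *Sharpin* (11.0 ± 0.472 TPM), *Tnfaip3* (10.3 ± 2.49 TPM) and *Birc2* (9.61 ± 0.672 TPM) followed, and each overlapped its neighbour in this order. *Birc2* did not overlap *Traf6*, which opened a lower tier of *Traf6*, *Traf2*, *Birc3*, *Cyld* and *Rnf31* between 4.50 and 5.42 TPM, in which neighbours overlapped again. With *Uba1* siRNAs the order differed mainly for a pair of genes, as *Tnfaip3* moved from rank 4 to rank 10 and *Cyld* from rank 9 to rank 5.

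**Figure D1:**
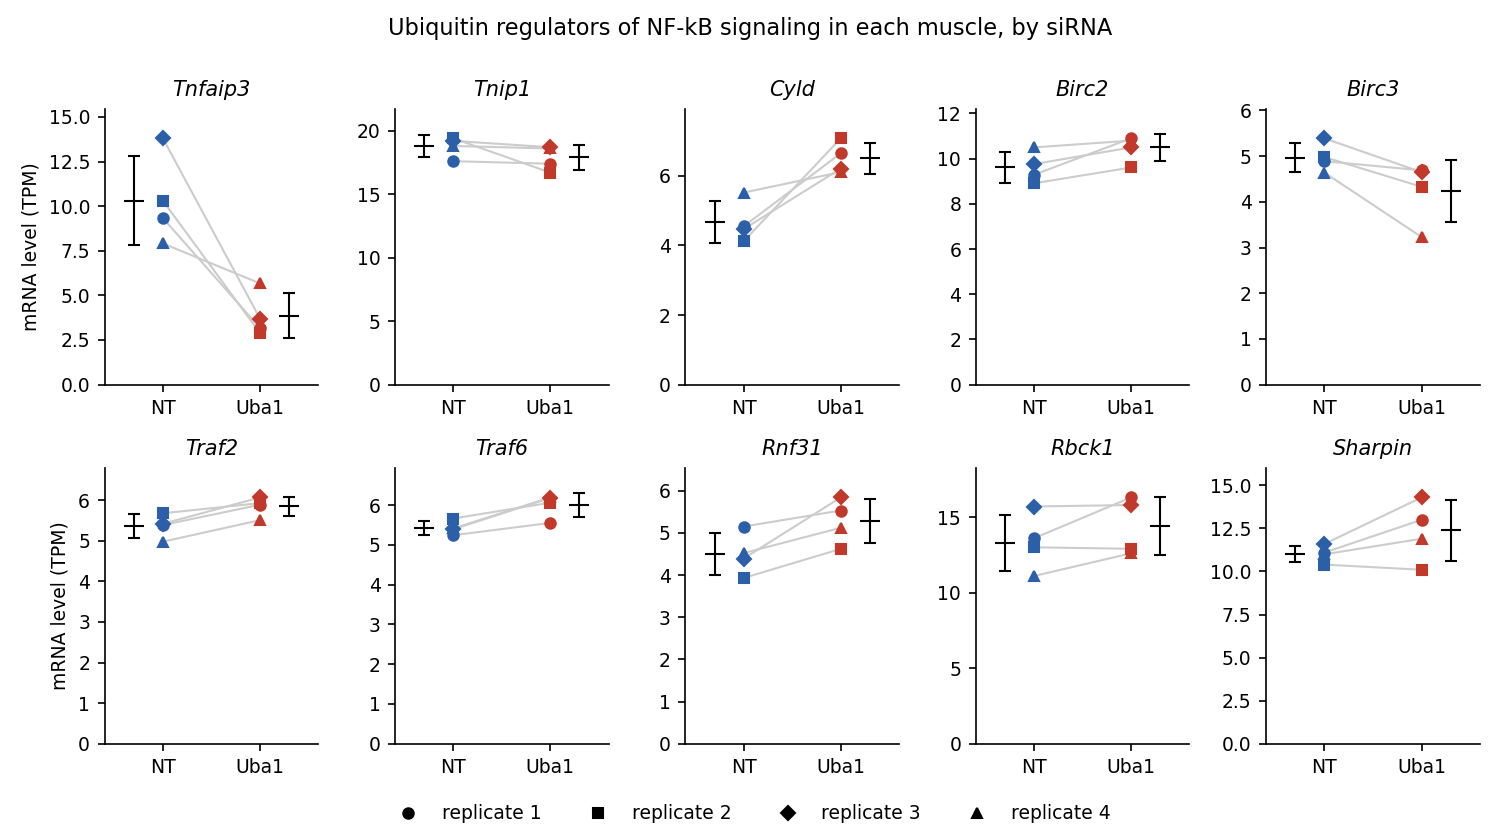
mRNA level in TPM (vertical axes, from 0) of the 10 genes in muscles with NT siRNAs (blue) and *Uba1* siRNAs (red). Symbols stand for replicates 1 to 4, gray lines join the legs of a mouse, and the black bars give mean ± SD. *Tnfaip3* and *Cyld* are the only panels in which the groups do not overlap.

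*Tnfaip3* encodes A20, a ubiquitin-editing enzyme that restrains NF-kB signaling. The gene spans positions 18874201 to 18891405 of chromosome 10 (GRCm39, minus strand). *Tnfaip3* mRNA measured 9.33, 10.3, 13.8 and 7.91 TPM in NT replicates 1 to 4 and 3.17, 2.89, 3.70 and 5.67 TPM in *Uba1* replicates 1 to 4. Each muscle with *Uba1* siRNAs lay below each muscle with NT siRNAs, and the means were 3.86 ± 1.25 and 10.3 ± 2.49 TPM (SD, n = 4 each), a ratio of 0.374. The log2FC was -1.23 (standard error 0.194, 95% interval -1.67 to -0.79). The unadjusted p was 1.22e-04 and the adjusted p 0.0644 (limma), so *Tnfaip3* did not pass the adjusted threshold of 0.05, and with the replicate block the adjusted p was 0.0560. Among the 11530 genes it had the 20th smallest p and the 24th lowest log2FC. The exact permutation test of 4 against 4 muscles gave p = 0.0286 (two-sided), the smallest it can give. *Uba1* replicate 4 had the most *Tnfaip3* mRNA of its group, the most *Uba1* mRNA left and the smallest difference between the legs (-0.42, against -1.31 to -1.65 in the other pairs). The NT leg of that mouse had the least *Tnfaip3* mRNA of its group (7.91 TPM). The largest difference was in replicate 3, whereas *Uba1* mRNA was lowest in replicate 2, and a relation to the *Uba1* mRNA left was not tested. Without *Uba1* replicate 4 the log2FC was -1.39 and the adjusted p 0.0166 (limma). Scaling of the TPM also moved this call, since *Tnfaip3* passed with median-ratio scaling (log2FC -1.33, adjusted p = 0.0472 from limma) and with quantile normalization (log2FC -1.34, adjusted p = 0.0467 from limma), but not with median-ratio scaling and the replicate block together (adjusted p = 0.0598 from limma). The annotation has an exon of the long non-coding RNA *Gm67161* over *Tnfaip3* on the opposite strand, and the library kit does not record strand, so reads of both cannot be told apart. *Gm67161* was not analysed here.

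*Tnip1* encodes ABIN-1, a ubiquitin-binding partner that brings A20 to its targets. The gene spans positions 54796320 to 54854661 of chromosome 11 (GRCm39, minus strand). *Tnip1* mRNA measured 17.6, 19.4, 19.2 and 18.8 TPM with NT siRNAs and 17.4, 16.7, 18.7 and 18.6 TPM with *Uba1* siRNAs, in the order of the replicates. The groups overlapped, although the *Uba1* leg was lower in 4 of 4 mice. The log2FC was -0.068 (standard error 0.0642, 95% interval -0.21 to 0.076; adjusted p = 0.565 from limma), and this interval leaves out a difference of the size seen for *Tnfaip3*. Without *Uba1* replicate 2 it was -0.039. *Tnip1* shares exon sequence with *Gpx3* on the opposite strand, and *Gpx3* was at 147 ± 15.3 TPM with NT and 215 ± 71.4 TPM with *Uba1* siRNAs (SD, n = 4 each), so the *Tnip1* values are uncertain. Within a muscle, where scaling has no part, *Tnip1* mRNA was 1.40 to 2.38 times as abundant as *Tnfaip3* mRNA with NT siRNAs and 3.28 to 5.78 times with *Uba1* siRNAs. These ranges do not overlap.

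*Cyld* encodes a deubiquitinase that removes linear and lysine-linked chains from signaling complexes and, like A20, restrains NF-kB. The gene spans positions 89423468 to 89478574 of chromosome 8 (GRCm39, plus strand). *Cyld* mRNA measured 4.55, 4.12, 4.47 and 5.52 TPM in NT replicates 1 to 4 and 6.65, 7.08, 6.21 and 6.11 TPM in *Uba1* replicates 1 to 4. Each muscle with *Uba1* siRNAs lay above each muscle with NT siRNAs, opposite to *Tnfaip3*, and the means were 6.51 ± 0.445 and 4.67 ± 0.599 TPM (SD, n = 4 each), a ratio of 1.39. The log2FC was 0.41 (standard error 0.0888, 95% interval 0.21 to 0.61). The unadjusted p was 0.00117 and the adjusted p 0.134 (limma), so *Cyld* did not pass either, and the exact permutation test gave p = 0.0286 (two-sided). The largest difference between legs was in replicate 2 (0.66) and the smallest in replicate 4 (0.12), whose NT leg had the most *Cyld* mRNA of its group (5.52 TPM). A relation of these differences to the *Uba1* mRNA left was not tested. The level of *Tnfaip3* mRNA relative to *Cyld* mRNA was 2.05, 2.50, 3.08 and 1.43 in NT replicates 1 to 4 and 0.477, 0.409, 0.596 and 0.929 in *Uba1* replicates 1 to 4. The mRNA of A20 was thus the more abundant of these 2 deubiquitinase mRNAs in 4 of 4 muscles with NT siRNAs and the less abundant in 4 of 4 with *Uba1* siRNAs.

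**Figure D2:**
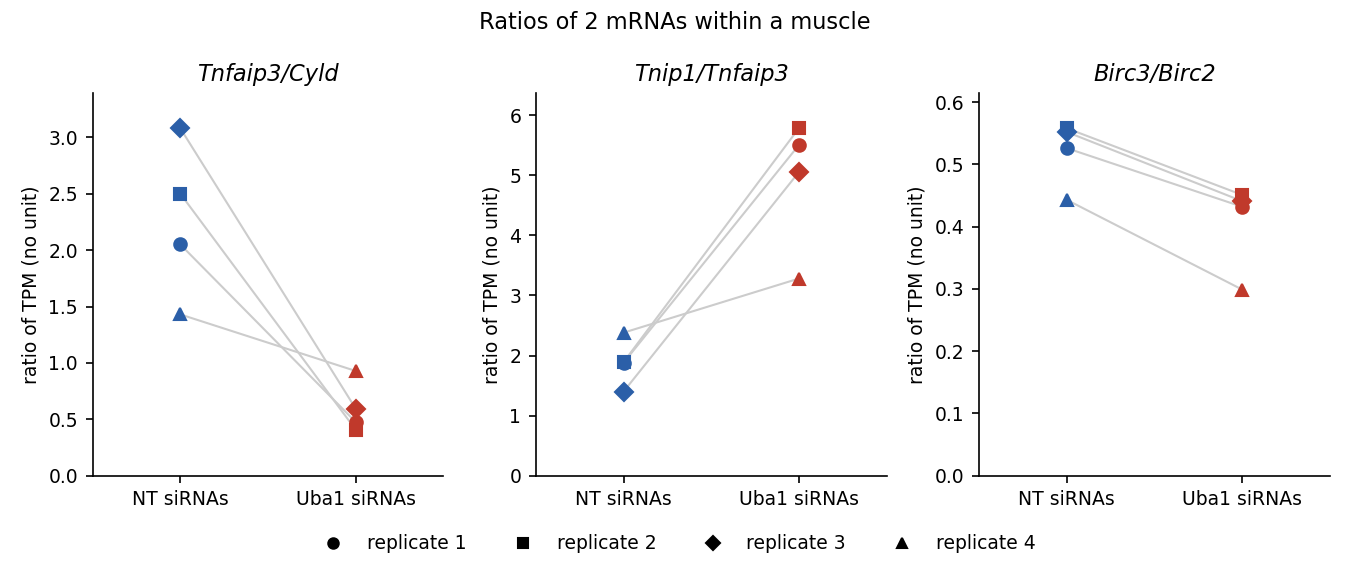
Ratio of the TPM of 2 mRNAs within each muscle (vertical axes, no unit, from 0) by siRNA, with lines joining the legs of a mouse. *Tnfaip3*/*Cyld* is above 1 in all NT muscles and below 1 in all *Uba1* muscles, *Tnip1*/*Tnfaip3* is higher in the 4 *Uba1* muscles, and *Birc3*/*Birc2* is lower in 4 of 4 mice with ranges that overlap.

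*Birc2* and *Birc3* encode the ligases cIAP1 and cIAP2, which build chains on RIPK1 in TNF receptor complexes and, in resting cells, keep the kinase of the non-canonical NF-kB pathway low. They are neighbours on chromosome 9 of GRCm39 (*Birc2* from 7818227 to 7837120 and *Birc3* from 7845790 to 7873229, both on the minus strand). *Birc2* ranged from 8.91 to 10.5 TPM with NT and from 9.61 to 10.9 TPM with *Uba1* siRNAs, overlapping ranges with a log2FC of 0.11 (95% interval -0.049 to 0.27; limma adjusted p = 0.401). *Birc3*, known as an NF-kB target in many cells, was at 4.89, 4.98, 5.39 and 4.64 TPM in NT replicates 1 to 4 and at 4.69, 4.33, 4.65 and 3.23 TPM in *Uba1* replicates 1 to 4. The *Uba1* leg was lower in 4 of 4 mice, by the most in replicate 4, and the groups overlapped. Its log2FC was -0.20 (standard error 0.104, 95% interval -0.43 to 0.033; adjusted p = 0.327 from limma), and -0.10 without *Uba1* replicate 4. The ratio of *Birc3* to *Birc2* mRNA was 0.520 ± 0.0533 with NT and 0.405 ± 0.0716 with *Uba1* siRNAs (SD, n = 4 each), lower in 4 of 4 mice.

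*Traf2* and *Traf6* encode the adaptor ligases of TNF receptors and of IL-1 and Toll-like receptors, respectively, and both lie on chromosome 2 of GRCm39 (from 25406097 to 25436987 and from 101508519 to 101533545). Their levels were nearly the same, at a *Traf2* to *Traf6* ratio of 0.990 ± 0.0476 with NT and 0.978 ± 0.0692 with *Uba1* siRNAs (SD, n = 4 each). *Traf2* ranged from 4.98 to 5.68 TPM with NT and from 5.51 to 6.07 TPM with *Uba1* siRNAs, and *Traf6* from 5.24 to 5.66 and from 5.55 to 6.19 TPM. Both were higher in the *Uba1* leg of 4 of 4 mice by small amounts, with a log2FC of 0.10 for *Traf2* (standard error 0.0655, 95% interval -0.043 to 0.25; adjusted p = 0.397 from limma) and of 0.12 for *Traf6* (standard error 0.0636, 95% interval -0.021 to 0.27; adjusted p = 0.329 from limma). With median-ratio scaling these were 0.0012 and 0.019, and with quantile normalization *Traf2* turned to -0.0071.

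LUBAC joins the catalytic ligase HOIP (*Rnf31*) to HOIL-1 (*Rbck1*) and SHARPIN (*Sharpin*). The mRNAs of the partners were more abundant than that of the catalytic subunit in 8 of 8 muscles, at 2.46 to 3.57 times for *Rbck1* and 2.15 to 2.65 times for *Sharpin*. *Rnf31* was at 5.15, 3.93, 4.39 and 4.52 TPM in NT replicates 1 to 4 and at 5.53, 4.62, 5.84 and 5.12 TPM in *Uba1* replicates 1 to 4. It was higher in the *Uba1* leg of 4 of 4 mice, with overlapping groups and a log2FC of 0.19 (standard error 0.0924, 95% interval -0.017 to 0.40; adjusted p = 0.306 from limma). *Rbck1* ranged from 11.1 to 15.7 TPM with NT and from 12.6 to 16.3 TPM with *Uba1* siRNAs, with a log2FC of 0.10 (95% interval -0.16 to 0.37; limma adjusted p = 0.639) that turned to -0.012 with median-ratio scaling. *Sharpin* ranged from 10.4 to 11.6 and from 10.1 to 14.3 TPM, with a log2FC of 0.14 (95% interval -0.077 to 0.36; limma adjusted p = 0.430). Single muscles moved both values, *Rbck1* to between 0.025 (without NT replicate 4) and 0.18 (without NT replicate 3) and *Sharpin* to between 0.074 (without *Uba1* replicate 3) and 0.23 (without *Uba1* replicate 2). *Rbck1* was also at 0.042, 0.058 and 0.16 without *Uba1* replicates 1, 3 and 4. Exons of these 3 genes overlap those of *Psme2* and *Irf9* (*Rnf31*), *Tbc1d20* (*Rbck1*) and *Maf1* (*Sharpin*) in the annotation, so their TPM are uncertain. Of these neighbours, *Psme2* was at 18.1 ± 1.96 TPM with NT and 22.8 ± 3.68 TPM with *Uba1* siRNAs (SD, n = 4 each).

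**Figure D3:**
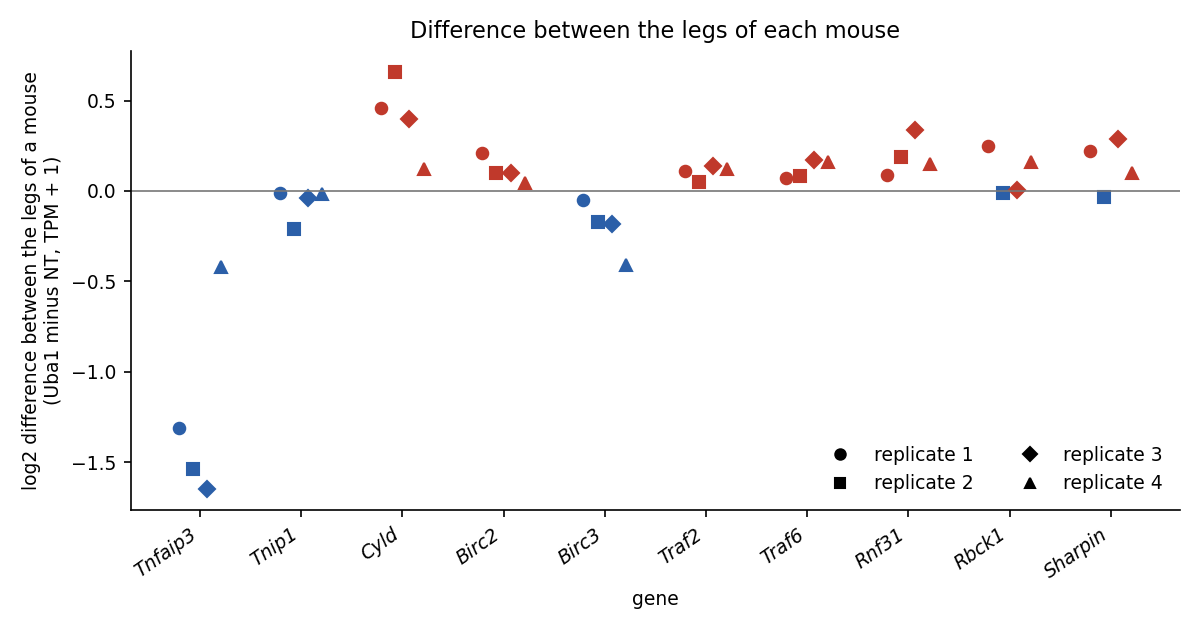
Difference in log2(TPM + 1) between the *Uba1* leg and the NT leg of each mouse (vertical axis), for the 10 genes. Symbols stand for replicates 1 to 4, with differences above 0 in red and below 0 in blue. With TPM as deposited, *Tnfaip3*, *Tnip1* and *Birc3* were lower in 4 of 4 mice, and *Cyld*, *Birc2*, *Traf2*, *Traf6* and *Rnf31* higher in 4 of 4. The differences of *Tnip1* were as small as -0.012. Of all genes, 83.3, 56.1, 81.8 and 61.8% were higher in the *Uba1* leg of replicates 1 to 4. The share of all genes with the same sign in 4 of 4 mice was not counted. With median-ratio scaling the log2FC of *Birc2*, *Traf2* and *Traf6* were 0.0016, 0.0012 and 0.019, and that of *Traf2* turned below 0 with quantile normalization.

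Counted together, 0 of the 10 regulators passed the adjusted p of 0.05 (limma), as 3 of all genes tested did (0.0260%), and 0 passed with the replicate block, against 57 of all genes (0.494%). At an unadjusted p under 0.05, 1 was higher, *Cyld*, against 16.0% of all genes tested, and 1 was lower, *Tnfaip3*, against 1.98%. With the replicate block, 2 were higher at that threshold (*Cyld* and *Rnf31*, against 22.4% of all genes) and 2 lower (*Tnfaip3* and *Birc3*, against 2.80%). By the Kruskal-Wallis test, 0 passed the adjusted p, and at an unadjusted p under 0.05 there were 3 higher, against 17.5% of all genes, and 1 lower, against 1.71%. The groups did not overlap for 1 higher regulator, against 10.6% of all genes tested, and for 1 lower, against 1.01%. Beside these shares, the higher counts of 1 to 3 regulators show nothing particular to them. Other scalings moved the counts at the unadjusted threshold. Median-ratio scaling gave 1 higher, against 4.43% of all genes, and 3 lower (*Tnfaip3*, *Birc3* and *Tnip1*), against 6.18%. Quantile normalization gave 1 higher, against 4.45%, and the same 3 lower, against 5.16%. Median-ratio scaling with the replicate block gave 1 higher, against 6.96%, and the same 3 lower, against 8.76%. Leaving mitochondrial genes out of the total gave 3 higher (*Cyld*, *Rnf31* and *Sharpin*), against 22.0% of the genes, and 1 lower, against 2.03%.

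**Figure D4:**
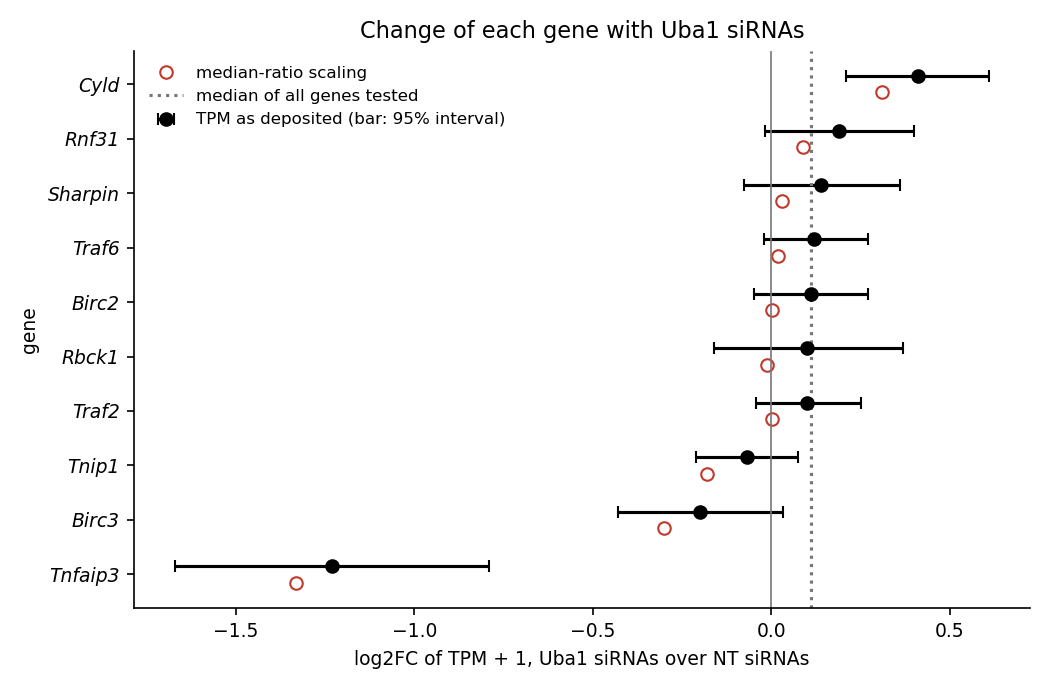
log2FC of each gene with *Uba1* siRNAs over NT siRNAs (horizontal axis) with its 95% interval from limma (black) and after median-ratio scaling (open red circles). The dotted line is the median of all genes tested, 0.11, near which 6 of the 10 genes sit.

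The sign of small differences depended on the scaling of the TPM. The median log2FC of all genes tested was 0.11, and 0.0016 with median-ratio scaling, so differences are also given relative to it. Relative to this median, *Tnfaip3* was at -1.33, *Birc3* at -0.31, *Tnip1* at -0.17 and *Cyld* at 0.30, whereas *Birc2*, *Traf2*, *Traf6*, *Rnf31*, *Rbck1* and *Sharpin* lay between -0.0038 and 0.086. The median of the 10 regulators was 0.11, the same as that of all genes, and 7 of the 10 were higher (70.0%) against 81.8% of all genes. After median-ratio scaling, 6 regulators were higher, against 50.7% of all genes, and *Birc3* (log2FC -0.30) and *Tnip1* (-0.18) reached an unadjusted p of 0.00560 and 0.0241 (limma) but not the adjusted threshold (0.242 and 0.374). The spread between muscles also set these genes apart. With NT siRNAs, the coefficient of variation was 24.1% for *Tnfaip3* and between 3.24% (*Traf6*) and 14.0% (*Rbck1*) for the other genes.

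The genes whose level over the 8 muscles was most like that of *Tnfaip3*, by the root mean square difference of centred log2(TPM + 1), were *Cd83* (0.207), *Gem* (0.223) and *Has1* (0.231). Their log2FC were -1.12, -1.11 and -1.30. *Cd83* encodes a membrane protein of activated immune cells, *Gem* a small GTP-binding protein and *Has1* a hyaluronan synthase, and the muscles had been injected with hyaluronidase in both groups. For *Cyld* the nearest were *Zfp72* (0.0349), *Pnpla8* (0.0511) and *Rrm2b* (0.0574), with log2FC of 0.38, 0.40 and 0.34. These measures share the muscles and the contrast with the regulators and carry no test.

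Other genes of the pathway were taken from lists of known components, and their counts at an unadjusted p under 0.05 stand beside 16.0% higher and 1.98% lower among all genes tested. Upstream, the receptors and adaptors had 0 of 21 tested genes past the adjusted p, with 5 higher and 1 lower at the unadjusted threshold and a median log2FC of 0.093. With the replicate block these were 8 higher and 0 lower, against 22.4% and 2.80% of all genes. *Tirap*, an adaptor of Toll-like receptors, had a log2FC of 0.43 and *Ltbr*, the lymphotoxin beta receptor, of 0.30 (adjusted p = 0.154 and 0.164 from limma). Among the kinases and their subunits 0 of 11 passed, with 3 higher and 1 lower at the unadjusted threshold (4 and 1 with the block) and a median of 0.15. *Chuk*, which encodes IKK-alpha, had a log2FC of 0.25 and *Map3k8* of -0.40 (adjusted p = 0.149 and 0.168 from limma). Among the other ubiquitin enzymes and binders 0 of 17 passed, with 2 higher and 0 lower at the unadjusted threshold (1 and 0 with the block) and a median of 0.066. *Itch*, a ligase that works with A20, had a log2FC of 0.22 and *Rnf11*, another partner of A20, of 0.17 (adjusted p = 0.208 and 0.225 from limma). With median-ratio scaling, the medians of these 3 lists were 0.026, 0.046 and -0.029, beside 0.0016 for all genes. The counts at the unadjusted threshold were then 3 higher and 3 lower for receptors and adaptors, 1 and 1 for kinases, and 0 and 1 for the other ubiquitin enzymes and binders, beside 4.43% higher and 6.18% lower of all genes.

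Downstream, the values were lower. Of the 11 NF-kB subunits and IkB inhibitors, 10 were below 0, against 2094 of the 11530 genes tested, and 7 were lower at an unadjusted p under 0.05, against 1.98% of those genes, with a median log2FC of -0.42 (-0.49 with median-ratio scaling). None passed the adjusted p (0 of 11, limma). *Bcl3*, an IkB-like cofactor, was at 3.88 ± 0.345 TPM with NT and 1.70 ± 0.430 TPM with *Uba1* siRNAs (SD, n = 4 each), with a log2FC of -0.87 (limma adjusted p = 0.0527, and 0.0405 with the replicate block). It also passed without the block under other scalings, such as median-ratio scaling (limma adjusted p = 0.0252). Of the 20 NF-kB targets tested, 16 were below 0 and 12 were lower at that threshold, beside the same shares of all genes, with a median of -0.76 (-0.85 with median-ratio scaling). With the replicate block, 8 of the 11 subunits and inhibitors and 16 of the 20 targets were lower at that threshold, against 2.80% of all genes. *Ccl2*, *Icam1* and *Irf1*, which encode a chemokine, an adhesion molecule and a transcription factor, fell, with log2FC of -3.00, -1.73 and -0.95 (limma adjusted p = 0.00429, 0.0128 and 0.00429). *Ccl2* and *Irf1* passed in 16 of 17 alternatives and missed the threshold by the Kruskal-Wallis test (adjusted p = 0.180), in which no gene passed. *Icam1* passed in 11 of 17, and its adjusted p was also 0.0552 without the filter on low TPM and 0.0575, 0.0596, 0.105 and 0.0758 without NT replicate 2, NT replicate 4, *Uba1* replicate 1 and *Uba1* replicate 3 (limma). The log2FC of *Ccl7* (-2.45), a chemokine gene, and *Sele* (-2.05), the E-selectin gene, had a limma adjusted p of 0.0515 and 0.0572, and of 0.0359 and 0.0149 with the replicate block. Both also passed without the block under median-ratio scaling (limma adjusted p = 0.0252 and 0.0472). Both downstream lists were written with earlier results of these muscles known, so they are no independent evidence of direction. Within this setting *Tnfaip3* (log2FC -1.23) lay below the median of the targets, while *Birc3* (-0.20) and *Tnip1* (-0.068), which also respond to NF-kB in many cells, lay above it.

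**Figure D5:**
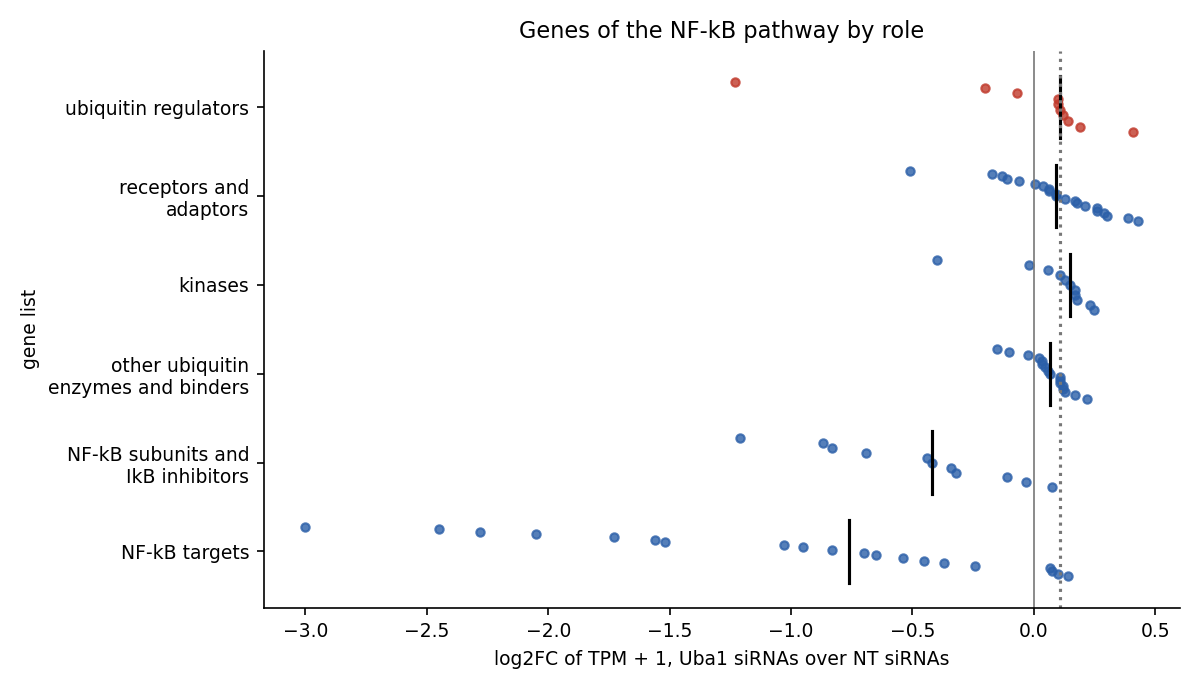
log2FC of each tested gene (horizontal axis) in 6 lists of the NF-kB pathway, with the 10 ubiquitin regulators in red, a black bar at the median of each list and a dotted line at the median of all genes tested. The 3 upstream lists lie near that line, the subunits, inhibitors and targets lie mostly to its left, and *Tnfaip3* is the regulator farthest to the left.

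Markers of other cells were compared because many of them express these genes, and their counts stand beside 16.0% higher and 1.98% lower of all genes at an unadjusted p under 0.05 (22.4% and 2.80% with the replicate block). The summed TPM of 13 leukocyte markers ranged from 137 to 368 with NT and from 145 to 418 with *Uba1* siRNAs. Most of this sum was *Lyz2* (84.2 to 287 and 85.7 to 304 TPM), so it says little about the other markers. Of the 10 tested, 7 were above 0 and 3 below, and 0 reached that threshold (1 higher with the replicate block, *S100a8*). For the 8 endothelial markers the ranges were 129 to 194 and 143 to 183 TPM, also with 0 at that threshold in both fits. The 7 fibroblast markers ranged from 533 to 1072 and from 649 to 1317 TPM, and their sum was higher in the *Uba1* leg of 4 of 4 mice. Of these, 1 was higher at that threshold (*Lum*), and 3 with the replicate block (*Lum*, *Col1a1* and *Pdgfra*). The 6 markers of satellite cells, myoblasts and newly formed fibers (*Pax7*, *Myf5*, *Myod1*, *Myog*, *Myh3* and *Myh8*) ranged from 50.1 to 91.6 and from 35.2 to 95.8 TPM. Of these, 0 were at that threshold, and with the block 1 was higher (*Myod1*) and 1 lower (*Myh3*). The 5 osteoblast markers ranged from 9.53 to 16.2 and from 12.3 to 42.3 TPM, with 2 of 3 tested higher in both fits (*Bglap* and *Ibsp*). The means of these 2 were 5.34 and 6.33 times those with NT siRNAs (limma adjusted p = 0.174 and 0.197), although both were lower in the *Uba1* leg of replicate 1. *Sp7* and *Dmp1* were under 1 TPM in all muscles and not tested, but *Sp7* was at 0.101 to 0.355 TPM with NT and at 0.678 to 0.979 TPM with *Uba1* siRNAs, ranges that do not overlap. Of the 9 fiber markers 0 reached that threshold in both fits, but 2 were lower with median-ratio scaling, against 6.18% of all genes. In the fits with and without the block, 0 markers of any of these lists passed the adjusted p (limma). The summed ranges overlapped for each of these cell types, and *Cd3e*, a T-cell marker, was under 1 TPM in all muscles. The part of these cells in the values of *Tnfaip3* and *Cyld* was not tested.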

How the data were processed

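RNA of 8 TA muscles was sequenced as 100-bp paired-end reads, with replicates 1 to 4 of each group from separate mice. After quality trimming and alignment to GRCm39 in CLC Genomics Workbench, the authors quantified each gene and deposited TPM values. The annotation and the counting of reads shared between genes are not given in the sources used here. TPM keep no read depth, so the number of muscles limits the precision. Each value column matched 1 labelled muscle.

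TPM were transformed to log2(TPM + 1), and the genes reaching 1 TPM in 4 or more muscles were fitted with limma (version 3.58.1 in R 4.3.3; lmFit, eBayes with a trend) without covariates, since the study's RNA-seq comparison was unpaired. The Benjamini-Hochberg adjustment covered all 11530 genes. The script was tested on simulated data. Single genes were also compared by an exact permutation test, two-sided, whose smallest p for 4 against 4 is 0.0286. The titles give both legs of a mouse the same number, and legs with the same title number have the same replicate number in the descriptions. The correlation of deviations from the group means was -0.00037, 0.20, 0.58 and 0.54 for replicates 1 to 4. Alternatives were another pseudocount (0.1), no filter, a minimum mean of 5 TPM, median-ratio scaling, normalization by quantiles, leaving mitochondrial genes out of the TPM total, the replicate block (with and without median-ratio scaling), the Kruskal-Wallis test and leaving out each muscle.

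The regulators and all gene lists were chosen with earlier results of these data known. Genes named besides the regulators and *Uba1* were those of each pathway list past the adjusted p with or without the block, otherwise the 2 with the smallest p, the 3 nearest to each regulator with an unadjusted p under 0.01, and markers. Genes were placed with GENCODE M39 on GRCm39, and promoters came from RefSeq (GRCm38.p6).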

Additional observations from a re-analysis of the deposited data

Results flagged for a closer look

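Among 58 groups of 4 muscles examined for the genes named, in 3 a single muscle lay far from the other 3, about as many as the 2.90 that chance gives at 1 in 20. None of these was one of the 10 regulators. *Bcl3* was at 1.06 TPM in *Uba1* replicate 2, against 1.86 to 2.00 TPM in the other muscles of that group. *Sele* was at 2.87 TPM in *Uba1* replicate 4, against 0.261 to 0.615 TPM. *Rrm2b* was at 5.41 TPM in NT replicate 4, against 4.35 to 4.40 TPM.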

How the results depend on the processing

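Over the 17 alternatives, *Tnfaip3* stayed between -1.42 and -1.09 (log2FC) and *Cyld* between 0.30 and 0.48, with adjusted p from 0.0166 to 0.264 and from 0.0890 to 0.403 (limma or Kruskal-Wallis). At the adjusted p of 0.05, all genes past it numbered 23 under median-ratio scaling, 28 after quantile normalization, 57 with the replicate block, 76 under both that block and median-ratio scaling, 13 with mitochondrial genes left out, 11 with the minimum mean of 5 TPM (which did not test *Birc3* and *Rnf31*) and 0 by the Kruskal-Wallis test, whose smallest p is 0.0209 and which had 2210 genes at an unadjusted p under 0.05. Of the regulators, 1 (*Tnfaip3*) passed with median-ratio scaling and 1 with quantile normalization. Pairing the legs by the replicate block changed the call of no regulator with TPM as deposited, and under median-ratio scaling it lost that of *Tnfaip3* (0.0472 without and 0.0598 with it, limma). With 1 muscle left out, 0 to 1 regulators passed (1 without *Uba1* replicate 4) and 2 to 39 of all genes (39 without *Uba1* replicate 4, 6 without NT replicate 1, 5 without NT replicate 3 and 5 without *Uba1* replicate 2). At the unadjusted p of 0.05, 3 regulators were lower under median-ratio scaling (6.18% of all genes) and 3 after quantile normalization (5.16%). There were 2 lower in the blocked fit (2.80%) and 3 in the blocked fit of median-ratio values (8.76%). With a muscle left out, 1 regulator was lower each time, against 1.52 to 2.45% of all genes. Those higher numbered 3 with mitochondrial genes left out (22.0% of all genes), 2 with the block (22.4%), 3 by the Kruskal-Wallis test (17.5%), and 1 to 3 with a muscle left out: 2 without NT replicate 1 (12.4%), 2 without *Uba1* replicate 1 (12.3%) and 3 without *Uba1* replicate 2 (17.0%). Signs turned for *Rbck1* under median-ratio scaling, with or without the block (-0.012), and for *Traf2* under quantile normalization (-0.0071). The cause of these changes was not tested. With 4 muscles a group and no read depth, small differences of the other regulators were not resolved.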
